A study of Mus musculus with 18 samples.

Results

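The transcripts described here are those of 9 genes of the STAT, IRF and SOCS families: Stat2, Stat3, Irf1, Irf7, Irf8, Irf9, Socs1, Socs3 and Cish. They were picked by symbol from the 55536 genes in the table of read counts, and all 9 had enough reads to be tested among 17590 genes. The libraries were bulk RNA-seq of whole pancreatic islets from male mice aged 17 weeks, in 6 groups of 3. The question taken from the labels was how islets with no, 1 or 2 altered alleles of Slc30a8, the gene of the beta cell zinc transporter ZNT8, differ with and without inflammatory cytokines.

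Every mouse had the NOD.CB17-Prkdcscid/NCrCrl background, in which the Prkdc scid mutation leaves the host without mature T and B cells, so that the controls carried this mutation too. The genotypes were ZNT8 +/+ (called WT here), ZNT8 +/- (Het) and ZNT8 -/- (KO). After an overnight rest, islets of each genotype were kept for 24 h in plain medium (untreated) or in medium with added cytokines, namely IL-1beta at 150 pg/ml, TNF-alpha at 100 pg/ml and IFN-gamma at 10 pg/ml. The part of Slc30a8 that the -/- allele lacks is not stated in the labels. Nothing in the labels states that the 3 libraries of a group, or both treatments of a genotype, were taken from different mice; the p-values therefore cover only the spread among these libraries, which may be technical. Because whole islets were sequenced, a lower level cannot be told apart between fewer cells of a type and less RNA per cell.

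STAT proteins wait in the cytoplasm until a Janus kinase bound to a cytokine receptor phosphorylates them, after which they enter the nucleus and bind DNA. IFN-gamma acts through GAS elements and induces Irf1, type I interferons act through ISGF3, a complex with STAT2 and IRF9 that binds ISRE elements, and cytokines of the IL-6 family act through STAT3. SOCS proteins and CISH are feedback inhibitors made in response to the same signals, and in beta cells IRF1 and SOCS proteins are known as modifiers of the toxicity of cytokines.

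Library totals ran from 22990164 to 29946680 reads. Levels are in CPM, read counts scaled to the library total, given as mean ± SD with n = 3, and calls are adjusted p under 0.05 by edgeR's quasi-likelihood test. Slc30a8 itself averaged 116 CPM in untreated WT, 111 in Het and 49.2 in KO islets, so transcript was lower but present in the libraries labelled KO. T cell markers, summed, stayed at or under 2.18 CPM in all libraries but one. That one, untreated KO replicate 3, reached 19.3 CPM for T cell markers, of which Cd4 alone read 16.3 CPM. It had the highest level of all 18 libraries for 11 of 15 macrophage, 4 of 6 dendritic cell and 5 of 9 mesenchymal markers with reads. The same held for 5 of 5 T cell, 5 of 5 NK cell and 3 of 4 B cell markers with reads. Cd3e and Cd3g read 1.34 and 0.721 CPM there, against at most 0.292 and 0.0392 CPM elsewhere. The NK and B cell sums of this library were low, at 1.38 and 1.97 CPM. The untreated KO against WT differences of Irf8, Socs1 and Socs3 are given with and without this library.

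Stretches of promoter are shown for 5 of the 9 genes, which hold GAS or ISRE motifs through which STAT and IRF proteins bind. These are Socs1, Socs3 and Irf1, which rose with cytokines, and Irf8 and Cish, which did not pass that test. Stat2, which was called with cytokines in KO islets only, holds an ISRE match too and is not shown. The sequences are from RefSeq on GRCm38.p6, each read 5′ to 3′ on the strand of its gene and ending before the transcription start, except that of Cish. Motifs are in capitals. In Socs1 (chr16:10785537-10785786) they are 2 ISRE matches that overlap, in Socs3 (chr11:117969452-117969616) 1 GAS match, in Irf1 (chr11:53769764-53770013) a GAS match and then a kB match, and in Irf8 (chr8:120736108-120736357) and Cish (chr9:107296659-107296678) 2 GAS matches each.
Socs1: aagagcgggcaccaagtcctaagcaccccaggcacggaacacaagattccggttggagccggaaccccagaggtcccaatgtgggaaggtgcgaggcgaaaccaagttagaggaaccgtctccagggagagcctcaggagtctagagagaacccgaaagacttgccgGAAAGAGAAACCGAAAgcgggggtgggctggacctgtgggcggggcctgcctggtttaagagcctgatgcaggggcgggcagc
Socs3: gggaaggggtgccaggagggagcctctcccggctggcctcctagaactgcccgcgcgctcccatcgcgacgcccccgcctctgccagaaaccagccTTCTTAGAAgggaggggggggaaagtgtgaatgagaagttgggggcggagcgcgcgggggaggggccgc
Irf1: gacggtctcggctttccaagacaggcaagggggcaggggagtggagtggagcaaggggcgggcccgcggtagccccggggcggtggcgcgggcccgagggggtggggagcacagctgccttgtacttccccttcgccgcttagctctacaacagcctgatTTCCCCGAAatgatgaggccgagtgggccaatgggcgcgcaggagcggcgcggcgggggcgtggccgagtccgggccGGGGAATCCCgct
Irf8: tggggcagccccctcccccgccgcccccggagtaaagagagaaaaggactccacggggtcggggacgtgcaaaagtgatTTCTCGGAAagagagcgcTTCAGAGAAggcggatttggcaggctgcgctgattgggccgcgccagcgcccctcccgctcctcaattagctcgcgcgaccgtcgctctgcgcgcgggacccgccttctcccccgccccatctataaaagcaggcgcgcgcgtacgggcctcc
Cish: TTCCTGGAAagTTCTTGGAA

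Windows of 300 bases, from 250 before to 50 after the RefSeq start, were searched on both strands. For Irf1, Irf8 and Irf9, which have 2 windows each, the one nearest to the start of the GENCODE M21 gene was taken. GAS, spelled TTCNNNGAA, was in 4 of the 9 genes and in 8.3% of 32851 promoters. ISRE, spelled GAAANNGAAA, was in 2 of 9 and in 3.44% of promoters; the other gene with a match was Stat2, on the reverse strand at -222 to -213 from the start. The NF-kB motif kB was in 1 of 9 and in 4.51% of promoters. The GAS match of Irf1 lay at -90 to -82 and that of Socs3 at -154 to -146, while those of Irf8 lay at -171 to -163 and -153 to -145. The ISRE pair of Socs1 spanned -83 to -68. The pair of GAS matches in Cish covered bases 1 to 20 of its RefSeq transcript, inside an annotated exon. Stat3, Irf7 and Irf9 had no match to these letters in the window. A match is a description of sequence, and genes with the same motif did not share 1 pattern: Irf1 and Socs3 rose with cytokines, and for Irf8 and Cish no change was called.

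Per kilobase of exon, Stat3 had the highest level of the 9 genes in untreated WT islets, at 49.4 ± 1.02 CPM per kb, followed by Socs3 at 27.2 ± 4.67. Irf1 (10.1 ± 0.77) and Irf7 (9.72 ± 3.22) were indistinguishable. Cish, Stat2 and Irf9 lay between 4 and 4.86 CPM per kb. Socs1 (0.861 ± 0.196) and Irf8 (0.857 ± 0.0565) were lowest. With cytokines in WT islets Socs3 reached 65.0 ± 2.82 CPM per kb, beside 61.2 ± 1.00 for Stat3, and Socs1 reached 4.83 ± 0.367, beside 0.938 ± 0.0769 for Irf8. Thus Socs1, level with Irf8 before treatment, stood near Stat2 (5.33 ± 0.768) after it.

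**Figure D1:**
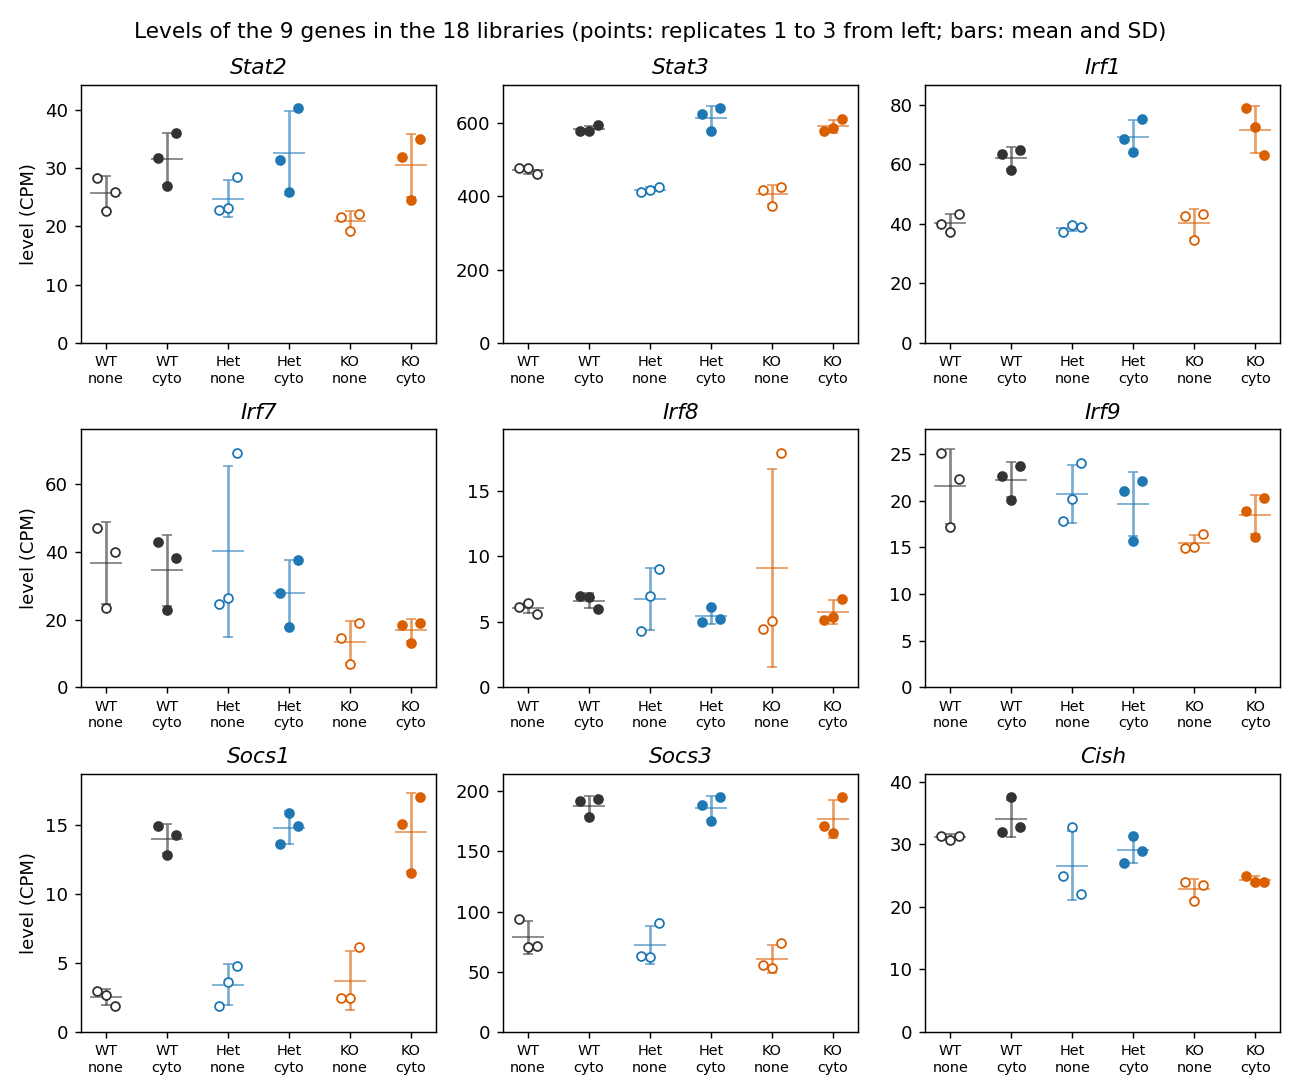
Level (CPM, linear axis from 0) of each of the 9 genes in the 18 libraries; open points are untreated and filled points cytokine-treated islets, black WT, blue Het and orange KO, and bars are the mean and SD of 3 libraries. Socs1, Socs3, Stat3 and Irf1 separate by treatment in every genotype, Cish and Irf7 are lowest in KO islets, and Irf8 has 1 high library at 17.9 CPM.

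Cytokines raised 4 of the 9 genes in WT islets (Socs1, Socs3, Irf1 and Stat3), the same 4 in Het islets, and these 4 and Stat2 in KO islets. No member was called lower in any genotype. Over all 17590 genes, 12.5% were called higher and 13.1% lower in WT (25.7% in all), 12.7% and 11.7% in Het (24.5%) and 15.3% and 16.0% in KO islets (31.3%). Member groups did not overlap for 5, 4 and 5 of 9 genes in WT, Het and KO islets, where 46.5%, 35.1% and 42.6% of all genes did not overlap. The median log2 change of the 9 genes was 0.30, 0.39 and 0.54, beside -0.01, -0.03 and -0.03 over all genes. The 9 genes were chosen with earlier results of these data known, so a gap to all genes is a description and not a test. Without untreated KO replicate 3, 5 genes were called in KO islets as well. These 3 comparisons have no library in common.

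Socs1, whose protein blocks the kinase activity of JAK1, JAK2 and TYK2 and thereby IFN-gamma signalling, had the widest rise. In WT islets its 3 libraries read 2.98, 2.66 and 1.87 CPM untreated and 14.9, 12.8 and 14.3 CPM with cytokines. The Het libraries read 1.84, 3.60 and 4.78, then 13.6, 15.9 and 14.9 CPM. The KO libraries read 2.43, 2.48 and 6.16, then 15.1, 11.5 and 17.0 CPM. Each treated library was above each untreated one, and the highest untreated value was that of untreated KO replicate 3. The log2 change was 2.48 ± 0.36 (SE) in WT (edgeR adjusted p 0.00013), 2.12 ± 0.34 in Het (0.000365) and 1.96 ± 0.34 in KO (0.000478). Without untreated KO replicate 3 the KO value for Socs1 was 2.57 ± 0.30 (edgeR adjusted p 1.81e-05). At 1.87 to 6.16 CPM, the untreated values rest on 51 to 188 reads per library.

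Socs3, the feedback inhibitor of gp130 receptors and so of STAT3, rose 2.39-fold in WT, 2.59-fold in Het and 2.91-fold in KO islets. It read 94.2, 70.5 and 71.1 CPM in untreated WT and 192, 179 and 194 CPM with cytokines. In Het islets it went from 62.7, 62.6 and 90.1 to 189, 175 and 195 CPM. In KO islets it went from 55.2, 53.0 and 73.7 to 171, 165 and 195 CPM. No treated library of Socs3 overlapped an untreated one, and the treated means of the genotypes (188 ± 8.14, 186 ± 10.2 and 177 ± 15.8 CPM) lay within their spread. The log2 changes were 1.26 ± 0.16, 1.37 ± 0.16 and 1.54 ± 0.16 (SE), with edgeR adjusted p of 3.58e-05, 1.32e-05 and 3.43e-06.

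Irf1, a tumour suppressor and transcription factor that turns on antigen presentation and Nos2, read 39.8, 37.3 and 43.4 CPM in untreated WT and 63.3, 57.9 and 64.7 CPM in treated WT islets. Het islets gave 37.3, 39.6 and 38.8, then 68.4, 64.0 and 75.0 CPM. KO islets gave 42.5, 34.5 and 43.4, then 78.7, 72.6 and 63.1 CPM. All 9 treated libraries were above all 9 untreated ones. The log2 change of Irf1 was 0.63 ± 0.09 (SE) in WT, 0.84 ± 0.09 in Het and 0.83 ± 0.09 in KO, each called (largest edgeR adjusted p 0.000135). Irf1 shares 135 exon bases with Gm17334 on the opposite strand, and the labels do not state whether counting used strand.

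Stat3, the signal carrier of IL-6, LIF and related cytokines, was the most abundant and least variable of the 9 genes, with a coefficient of variation within groups of 3.39%. Untreated WT libraries read 476, 476 and 460 CPM and treated ones 579, 577 and 594 CPM. Het libraries moved from 412, 418 and 426 to 624, 577 and 640 CPM, and KO libraries from 416, 374 and 425 to 577, 586 and 611 CPM. The treated groups overlapped with each other, whereas untreated WT was above each untreated Het and KO library. The log2 change of Stat3 was 0.31 ± 0.05 (SE) in WT (edgeR adjusted p 0.000319), 0.55 ± 0.05 in Het (8.79e-07) and 0.54 ± 0.05 in KO (7.21e-07). Its exons overlap those of Stat5a by 72 bases on the opposite strand.

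Stat2, the STAT found in ISGF3, was higher with cytokines on average in the 3 genotypes, and by the model of group means it was called in KO islets. It read 21.7, 19.2 and 22.2 CPM in untreated KO and 32.0, 24.6 and 35.0 CPM in treated KO islets, a log2 change of 0.54 ± 0.17 (SE, edgeR adjusted p 0.0222). WT libraries read 28.4, 22.6 and 26.0, then 31.7, 27 and 36.1 CPM, and the change of 0.30 ± 0.16 was not called (edgeR adjusted p 0.207). Het libraries read 22.8, 23.2 and 28.5, then 31.5, 26.0 and 40.3 CPM, with 0.39 ± 0.16 (edgeR adjusted p 0.0989). The WT and Het groups overlapped. The Stat2 call in KO was lost without untreated KO replicate 2 (edgeR adjusted p 0.0839), treated KO replicate 1 (0.0688) or treated KO replicate 3 (0.0922), and the Het comparison was called without treated Het replicate 2 (0.0319). Over all 16 alternatives per genotype, the KO call was lost in 4, and Stat2 was called in 5 in Het and in 2 in WT islets. The KO minus WT difference in the Stat2 response had an interval of -0.23 to 0.71 (2 SE to either side), so that the genotypes were not shown to differ.

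The other 4 genes were not called for cytokines in any genotype. Irf9, the DNA-binding part of ISGF3, changed by 0.04, -0.08 and 0.26 (log2, SE 0.15 each) in WT, Het and KO islets. Irf7, the factor that amplifies type I interferon production, changed by -0.09 ± 0.46, -0.53 ± 0.46 and 0.33 ± 0.48 (SE). Its untreated libraries read 47.0, 23.3 and 39.9 CPM (WT), 24.6, 26.4 and 69.2 CPM (Het) and 14.5, 6.74 and 19.0 CPM (KO), a coefficient of variation within groups of 38%, the highest of the 9. Cish, a target of STAT5 and inhibitor of growth hormone, prolactin and IL-2 signalling, changed by 0.13 ± 0.11, 0.13 ± 0.11 and 0.09 ± 0.11. In Het islets Cish passed without untreated Het replicate 2 (0.31 ± 0.09, edgeR adjusted p 0.0215), and the other Het omissions gave 0.01 to 0.18. For Cish, with all libraries, intervals of 2 SE end at 0.35 or below, so a rise the size of that of Irf1 or Socs3 lies outside them. In WT, the Cish groups did not overlap (31.4, 30.7 and 31.4 CPM, then 31.9, 37.5 and 32.8 CPM) although the change was not called (edgeR adjusted p 0.436). For Irf7 the intervals run from -1.45 to 1.29 over the 3 genotypes, and a change of either sign was not detectable against this spread. Irf8 changed by 0.13 ± 0.41 in WT (edgeR adjusted p 0.855) and -0.31 ± 0.41 in Het (0.641), and its KO values are given with its macrophage markers. The signs for Irf7 and Irf9 in WT and Het islets turned when single libraries were left out.

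**Figure D2:**
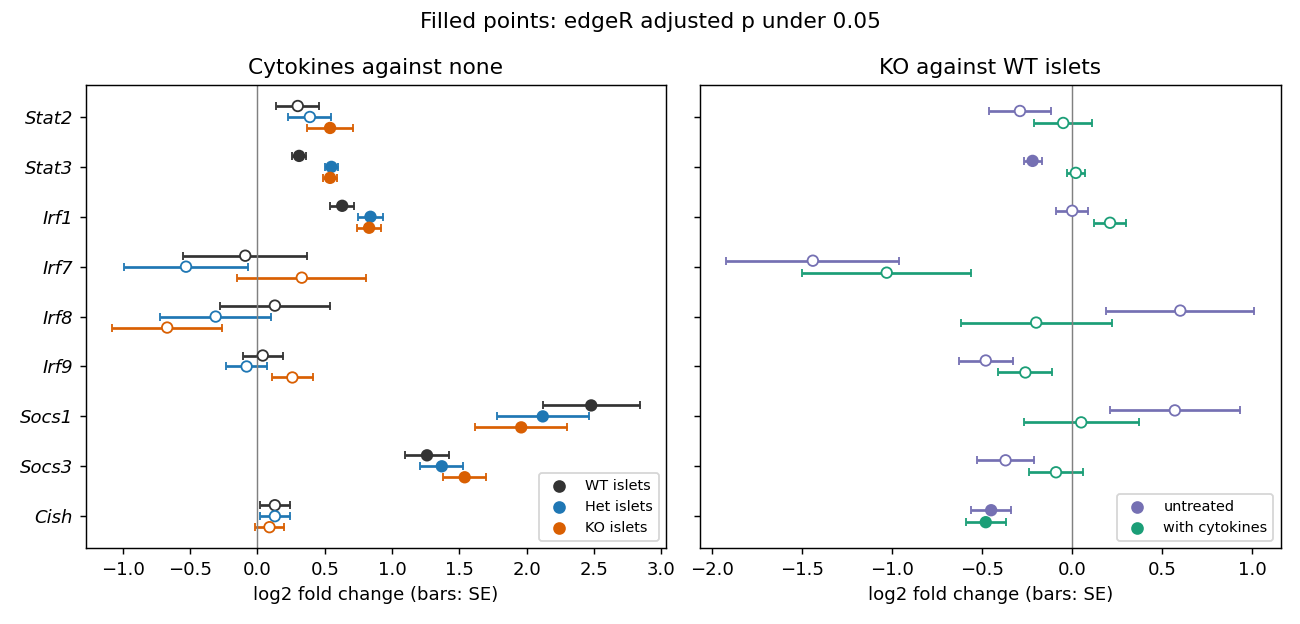
Log2 fold change with its SE (bars) for the 9 genes, left for cytokines against none in WT (black), Het (blue) and KO (orange) islets and right for KO against WT islets, untreated (purple) and with cytokines (green); filled points passed edgeR's adjusted p of 0.05. The wide rises are those of Socs1 and Socs3, and Cish is below 0 in both KO against WT comparisons.

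No member passed the test of a difference in cytokine response between genotypes, where 0% of all genes were called for Het minus WT, 0.0114% for KO minus WT and 0% for KO minus Het. At an unadjusted p under 0.05, 1, 1 and 0 of the 9 genes stood out, and DESeq2 and limma voom called none either. The gene was Stat3: its response was 0.24 ± 0.07 (SE) larger on the log2 scale in Het than in WT (p 0.00412, edgeR adjusted p 0.881) and 0.24 ± 0.07 larger in KO than in WT (p 0.00517, edgeR adjusted p 0.468). Both comparisons share the 6 WT libraries, and both use the untreated libraries in which Stat3 was higher in WT. The intervals for Socs1 (-1.49 to 0.45), Socs3 (-0.15 to 0.72) and Irf1 (-0.06 to 0.47) in KO minus WT include 0.

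In untreated islets, KO was lower than WT for 2 members, Stat3 and Cish, and higher for none, where 2.94% of all genes were called, 2.40% lower. Groups did not overlap for 5 of the 9 genes (Stat2, Stat3, Irf7, Irf9 and Cish), each lower in KO, beside 25.7% of all genes. The untreated libraries of Cish read 31.4, 30.7 and 31.4 CPM (WT), 25, 32.8 and 22 CPM (Het) and 24.0, 20.9 and 23.5 CPM (KO). Every KO value of Cish was below every WT value, and the Het values spanned both. The log2 difference of KO from WT was -0.45 ± 0.11 (SE, edgeR adjusted p 0.041). Without any 1 of the 6 libraries, the difference in Cish was -0.48 to -0.39 and the edgeR adjusted p 0.0675 to 0.148, so that no single omission kept the call. With no low-count filter it was 0.0504.

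With cytokines, Cish was again the member called lower in KO than in WT islets (31.9, 37.5 and 32.8 CPM against 25, 24.0 and 24.0 CPM), by -0.48 ± 0.11 (SE, edgeR adjusted p 0.0213), where 5.33% of all genes were called, 3.80% lower. These libraries are not those of the untreated comparison. The Cish call was lost without treated WT replicate 2 (edgeR adjusted p 0.112), treated KO replicate 1 (0.0583) or treated KO replicate 2 (0.0947). Acinar cell markers moved the same way: the sum of 10 of them was 6040 to 6420 CPM in untreated and 4420 to 8240 CPM in treated WT islets, and 1170 to 1840 and 544 to 1310 CPM in KO. Het islets lay between at 2190 to 3440 CPM. The 3 genes most like Cish over the libraries were Baiap2l1, Dsp and Plekhg6 (Pearson's r 0.88 each), of which Dsp encodes desmoplakin, a junction protein of epithelia. The part of exocrine cells in the Cish difference was not tested. Exons of Cish overlap those of Gm17041 by 479 bases and Gm17040 by 261 bases on the opposite strand.

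Without cytokines, Stat3 differed in KO from WT islets by -0.22 ± 0.05 (log2, SE, edgeR adjusted p 0.0343), a ratio of 0.861. The Stat3 call held without untreated KO replicate 3 (0.0399). It was lost without untreated WT replicate 1 (0.131), 2 (0.0989) or 3 (0.063) and without untreated KO replicate 1 (0.0917) or 2 (0.138), with no low-count filter (0.0619), and when the other groups were left out of the fit (0.089). Untreated Het islets differed from WT by -0.17 ± 0.05 (p 0.00444, edgeR adjusted p 0.438), and Stat3 was the member whose groups did not overlap there, beside 10.7% of all genes. With cytokines the KO minus WT difference of Stat3 was 0.02 ± 0.05 (edgeR adjusted p 0.859).

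Irf7 and Irf9, which type I interferon induces together, were lower in each untreated KO library than in each untreated WT library, and neither difference was called. That of Irf7 was the largest in size of the 9 genes. It was -1.44 ± 0.48 (SE, p 0.00948, edgeR adjusted p 0.126), a ratio of 0.367. Irf9 read 25.1, 17.2 and 22.3 CPM in WT and 14.9, 15 and 16.4 CPM in KO, a difference of -0.48 ± 0.15 (p 0.00607, edgeR adjusted p 0.101). With cytokines the difference was -1.03 ± 0.47 for Irf7 (42.8, 22.7 and 38.2 CPM in WT, 18.4, 13.1 and 19.1 CPM in KO; edgeR adjusted p 0.203) and -0.26 ± 0.15 for Irf9 (0.303). Irf7 and Cish were the members whose treated WT and KO groups did not overlap, beside 30.5% of all genes. Irf7 in untreated KO passed with DESeq2 (adjusted p 0.0437) and limma voom (0.0461), and Irf9 passed without untreated WT replicate 2 (edgeR adjusted p 0.048). Endothelial markers were lower in KO as well, at 215 to 332 CPM in untreated KO and 403 to 539 CPM in untreated WT islets. Acinar markers were lower too (1170 to 1840 and 6040 to 6420 CPM), while mesenchymal sums overlapped (1330 to 3410 and 1390 to 1570 CPM). Among untreated WT libraries, replicate 2 had the highest endothelial sum (539 CPM) and the lowest Irf7 and Irf9 (23.3 and 17.2 CPM). The part of these cells in the Irf7 and Irf9 differences was not tested. The 2 genes are annotated beside others: 45 exon bases of Irf7 lie opposite Phrf1, and 123 of Irf9 are shared with Rnf31 on the same strand.

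Of the remaining members, Socs3 differed by -0.37 ± 0.16 (SE, p 0.0301, edgeR adjusted p 0.219) in untreated KO against WT islets. Single omissions gave -0.54 to -0.22 for Socs3, of which -0.54 ± 0.15 (edgeR adjusted p 0.0819) was without untreated KO replicate 3 and -0.22 ± 0.16 (0.584) without untreated WT replicate 1, and limma voom called it (-0.43, adjusted p 0.0465). Stat2 differed by -0.29 ± 0.17 (edgeR adjusted p 0.386) and Irf1 by 0.00 ± 0.09 (1). With cytokines Irf1 differed by 0.21 ± 0.09 (p 0.0419, edgeR adjusted p 0.19), passing with limma voom (adjusted p 0.00922). Treated KO islets differed from WT by -0.05 ± 0.16 for Stat2, 0.05 ± 0.32 for Socs1, -0.09 ± 0.15 for Socs3 and -0.20 ± 0.42 for Irf8 (edgeR adjusted p 0.769 to 0.942). Het islets were not called different from WT or KO for any member in either treatment. Of all genes, 0.00569% were called for Het against WT untreated, 0% with cytokines, 0% for KO against Het untreated and 0.00569% with cytokines. At an unadjusted p under 0.05 by edgeR, those comparisons held 1, 0, 2 and 1 of the 9 genes. The 2 in untreated KO against Het were Irf7, at -1.57 ± 0.48 (edgeR adjusted p 0.195), and Irf9, at -0.42 ± 0.15 (0.238). DESeq2 and limma voom called Irf7 there, with adjusted p of 0.0439 and 0.0499. Groups did not overlap for 3 members in untreated KO against Het (Stat2, Irf7 and Irf9; 11.4% of all genes), and for Cish in both treated comparisons with Het (15.9% of all genes against WT and 14.2% against KO). These comparisons share their KO or WT libraries with those of KO against WT.

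Irf8, a factor of macrophages and dendritic cells, read 6.13, 6.4 and 5.61 CPM in untreated WT and 4.47, 5.03 and 17.9 CPM in untreated KO islets. All other 17 libraries were at or under 9.01 CPM. With all libraries the KO minus WT difference of Irf8 was 0.60 ± 0.41 (SE, edgeR adjusted p 0.473) and the KO cytokine change -0.67 ± 0.41 (0.237); without untreated KO replicate 3 they were -0.35 ± 0.23 (0.428) and 0.27 ± 0.23 (0.417). Socs1, at 6.16 CPM in that library, differed between untreated KO and WT by 0.57 ± 0.36 with it and -0.03 ± 0.31 without it. The same library read 113 CPM for Lyz2, 30.4 for Csf1r and 16.3 for Cd4, against at most 40.6, 13.8 and 2.04 in the others. Its 9 mesenchymal markers summed to 3410 CPM, the highest of the 18 libraries, beside 1460 and 1330 CPM in untreated KO replicates 1 and 2. The part of immune or mesenchymal cells in the Irf8 and Socs1 levels of this library was not tested. Of the 15 macrophage markers, Cd14 alone read 18.4 to 159 CPM in untreated and 78.2 to 396 CPM in treated libraries, and 34.4 CPM in this one. The other 14 markers summed to 440 CPM in this library, 127 to 215 CPM in the other 8 untreated ones and 138 to 204 CPM in the 9 treated ones.

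**Figure D3:**
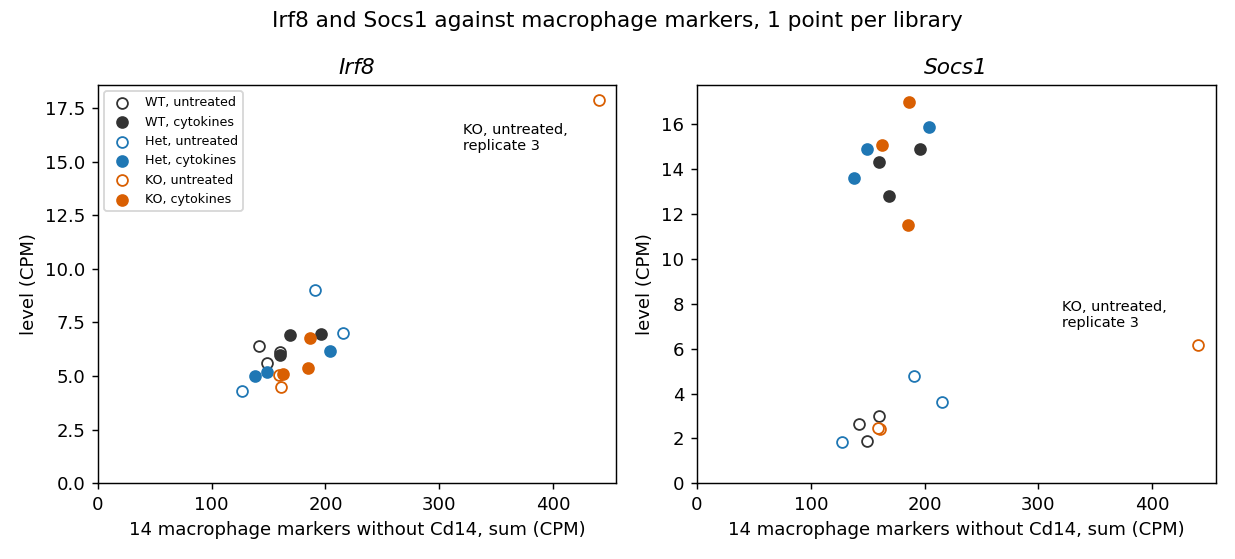
Level of Irf8 (left) and Socs1 (right) in CPM against the summed level of 14 macrophage markers (all but Cd14) in CPM, 1 point per library, open untreated and filled with cytokines, black WT, blue Het and orange KO. Untreated KO replicate 3 stands apart at 440 CPM of markers and 17.9 CPM of Irf8, while Socs1 in treated libraries (11.5 to 17.0 CPM) lies above it at macrophage sums of 138 to 204 CPM.

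Treatment split the 9 genes by how they varied over the libraries. Over the 18 libraries, Pearson's r of log2 CPM was 0.95 for Socs1 with Socs3, 0.97 for Socs3 with Stat3 and 0.93 for Stat3 with Irf1. These points share their treatment groups, so within-group deviations were taken as well. There r fell in size to 0.78 for Socs1 with Socs3, 0.59 for Socs3 with Stat3 and 0.43 for Stat3 with Irf1. Stat2, Irf7 and Irf9 varied together inside groups, with r of 0.88 for Stat2 with Irf9, 0.82 for Stat2 with Irf7 and 0.81 for Irf7 with Irf9. Socs3 varied with them too, at 0.82 with Irf7, 0.72 with Irf9 and 0.65 with Stat2, so that these 3 were not set apart from it. Irf8 and Socs1 had a within-group r of 0.90, and 0.86 over 17 libraries without untreated KO replicate 3. Without that library r was 0.68 for Socs1 with Socs3, 0.46 for Socs3 with Stat3 and 0.79 for Socs3 with Irf7. Values over libraries are descriptions, since both genes of a pair are read from the same library.

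**Figure D4:**
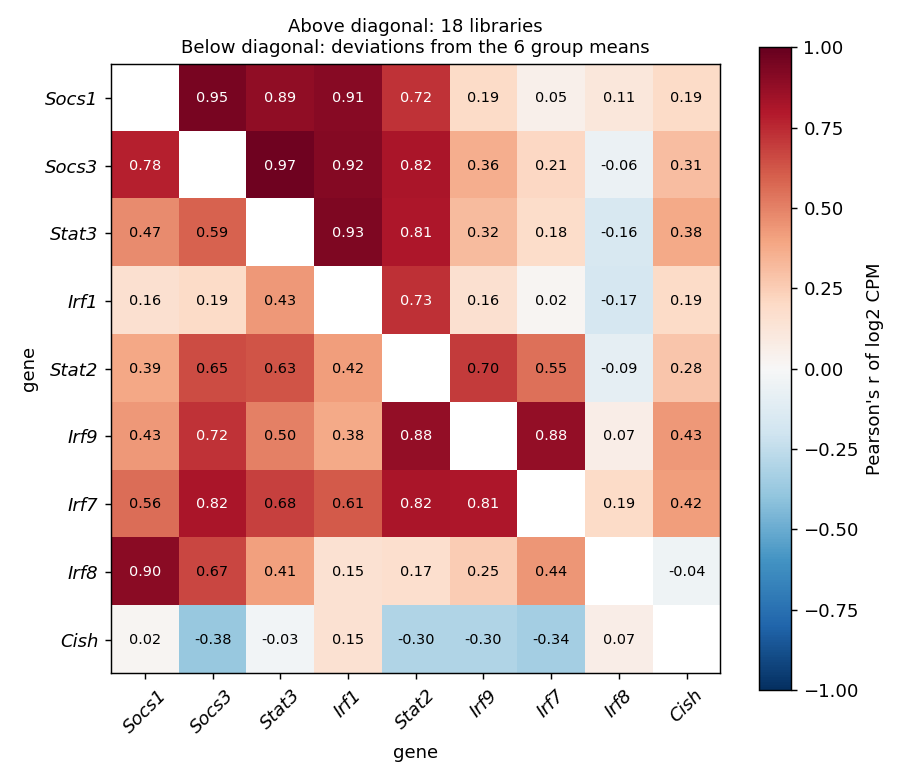
Pearson's r of log2 CPM between the 9 genes, above the diagonal over 18 libraries and below it after subtracting the 6 group means; colour runs from -1 (blue) to 1 (red). Socs1, Socs3, Stat3 and Irf1 form a block above the diagonal (0.89 to 0.97), and below it Stat2, Irf9 and Irf7 (0.81 to 0.88), Irf8 with Socs1 (0.90) and Socs3 with Irf7 (0.82) have the high values.

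Among 12377 genes with a mean of at least 2 CPM, those with the highest Pearson's r are named here for each member but Cish. Such short lists cannot show whether members have separate sets of like genes. Socs1, Socs3, Stat3 and Irf1 themselves correlated at 0.89 to 0.97 over the same libraries, which share their treatment groups. Socs3 was followed by Pgs1, Bcl3 and Steap4 (r 0.99 each), Irf1 by Pea15a (0.99), the immunoproteasome subunit gene Psmb10 (0.98) and Noxo1 (0.98), and Socs1 by Sulf1, Ehd1 and the chemokine gene Ccl7 (0.98 each). Stat3 was followed by Serpina3m, Galnt18 and Susd6 (0.98 each). The genes next to Stat2 were Oasl2 (0.90), Parp14 and Gbp3 (0.89 each), those next to Irf7 were Ifi27 (0.94), Bst2 (0.93) and Oasl1 (0.91), and those next to Irf9 were Xaf1 (0.91), Irf7 and Oas2 (0.88 each). Irf8 was followed by Arhgap45, Itga4 (0.92 each) and the leukocyte gene Laptm5 (0.91).

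Upstream, none of 13 tested ligands of JAK-STAT receptors was called lower with cytokines, and 6 in WT, 4 in Het and 5 in KO islets were called higher. Of all genes, 12.5%, 12.7% and 15.3% were called higher and 13.1%, 11.7% and 16.0% lower in WT, Het and KO islets. The gene lists here and below were chosen with earlier results of these data known. Csf3, the gene of G-CSF, went from 0.656 ± 0.200 to 72.1 ± 2.99 CPM in WT islets, and Il6 from 14.2 ± 4.96 to 163 ± 66.8 CPM. Ifng had no read in any library and Ifnb1 reached 0.106 CPM at most. Of 19 receptor chains, WT islets had 5 that rose and 3 that fell, Het islets 4 and 3, and KO islets 4 and 5. The count of JAK-STAT receptor chains that rose reached 10 in WT and 8 in KO under other settings, and 7 in KO without untreated KO replicate 3. Ifngr2, the signalling chain of the IFN-gamma receptor, rose by 1.27 ± 0.10, 1.23 ± 0.10 and 1.52 ± 0.10 (log2, SE; largest edgeR adjusted p 2.55e-07). Prlr, the prolactin receptor that signals through STAT5 in beta cells, fell by 1.92, 2.18 and 2.19 on the log2 scale (largest edgeR adjusted p 1.15e-06). Of the 4 Janus kinases, 3, 2 and 2 were higher and 0, 0 and 1 lower. Jak3 by 0.40 to 0.74 and Jak1 by 0.16 to 0.25 were higher in all genotypes, and Tyk2 was lower by -0.30 ± 0.07 in KO (edgeR adjusted p 0.00484). Jak2 was called higher in WT (0.42 ± 0.15, edgeR adjusted p 0.0468) and not in Het (0.37, 0.0819) or KO (0.30, 0.144). The Janus kinases called higher numbered 0 to 2 in WT and 1 to 3 in KO over single omissions. In WT the count was 0 without untreated replicate 3 and 1 without untreated replicate 2 or treated replicate 1 or 3, and the Jak1 call was lost in these 4 (edgeR adjusted p 0.0521 to 0.129). Without untreated replicate 3 the WT call of Jak3 was lost too (edgeR adjusted p 0.0505). In KO the count was 1 without untreated replicate 1 or 2 or treated replicate 3, with the Jak1 call lost (0.0786 to 0.213), and Jak1 was also lost when the other groups were left out of the fit (0.093).

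Among other STAT genes, Stat6 was higher (0.53 to 0.63) and Stat5b lower (-0.64 to -0.41) in all 3 genotypes, and Stat5a was lower in Het (-0.30) and KO (-0.53). Of 4 other IRF genes tested, 1 was called in each genotype: Irf2, a competitor of IRF1, which rose by 0.34 to 0.44. The other 5 SOCS genes did not share the rise of Socs1 and Socs3: 0, 0 and 1 were higher and 1, 2 and 2 lower. Socs2 fell by 0.62 in Het and 0.74 in KO, Socs7 by 0.24 in WT and 0.34 in KO, and Socs5 by 0.29 in Het, while Socs6 rose by 0.34 in KO. The count of SOCS family genes lower varied from 0 to 1 in WT and 0 to 2 in Het over single omissions: it was 0 in WT without untreated replicate 2 or 3 or treated replicate 1 or 2, and in Het without untreated replicate 2 or treated replicate 1 or 3. Of 11 further negative regulators, 2, 3 and 2 were higher and 0, 1 and 1 lower. Beside these counts, 12.5%, 12.7% and 15.3% of all genes were higher and 13.1%, 11.7% and 16.0% lower in WT, Het and KO islets. Ptpn1 and Ptpn2, phosphatases of Janus kinases and STATs, rose in each genotype by 0.90 to 1.33, from 99.1 ± 4.15 to 191 ± 4.51 CPM for Ptpn1 in WT.

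Downstream, 15 of 19 STAT3 targets rose in WT and 14 in Het and in KO islets, none fell, and their medians were 1.77, 2.06 and 1.53. Among all genes, 12.5%, 12.7% and 15.3% were called higher and 13.1%, 11.7% and 16.0% lower in WT, Het and KO islets. Because the lists were chosen with earlier results of these data known, the gap to all genes is a description and not a test of enrichment. Orm1 rose by 6.63, 7.29 and 10.07 (log2) in WT, Het and KO islets. Its untreated means were near the floor, at 0.249, 0.196 and 0.0371 CPM, and its treated means 26, 31.3 and 44.7 CPM. Cebpb rose by 1.09 ± 0.08, 1.08 ± 0.08 and 1.23 ± 0.08 (SE, largest edgeR adjusted p 1.48e-07). Many of these genes are also known targets of NF-kB, which TNF-alpha and IL-1beta activate. Of 18 IFN-gamma and IRF1 targets, 6, 10 and 10 rose and none fell, with medians of 0.69, 0.94 and 0.97. Over all settings the count of IFN-gamma and IRF1 targets that rose varied from 5 to 9 in WT, 7 to 13 in Het and 8 to 17 in KO islets; it was 16 in KO without untreated KO replicate 3, and 1 was lower without untreated KO replicate 1. Gbp6, a guanylate-binding protein gene, went from 1.13 ± 0.314 to 6.85 ± 0.365 CPM and Nos2, the inducible nitric oxide synthase gene, from 1.51 ± 1.22 to 62.3 ± 1.6 CPM in WT islets. Of 22 ISGF3 targets, 0, 2 and 5 rose and 1, 1 and 2 fell, with medians of 0.19, -0.09 and 0.43. Called in either direction were 25.7%, 24.5% and 31.3% of all genes, so no excess of calls was read from the ISGF3 list. Eif2ak2 (0.28 and 0.44) and Ddx58 (0.44 and 0.26) rose in Het and KO, Oasl2 rose by 1.08 ± 0.28 in KO, and Cmpk2 fell by 0.53 in WT and in KO. The count of ISGF3 targets that rose varied from 0 to 5 in WT, 1 to 5 in Het and 2 to 10 in KO over the other settings, so no order of genotypes was read from it. Of 8 STAT5 targets, 4 rose in each genotype and 1, 3 and 3 fell, with Tph2 (2.00 to 2.89) and Bcl2l1 (0.47 to 0.65) among those that rose. The count of STAT5 targets lower in Het was 1 without untreated Het replicate 2 or treated Het replicate 1 or 3.

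**Figure D5:**
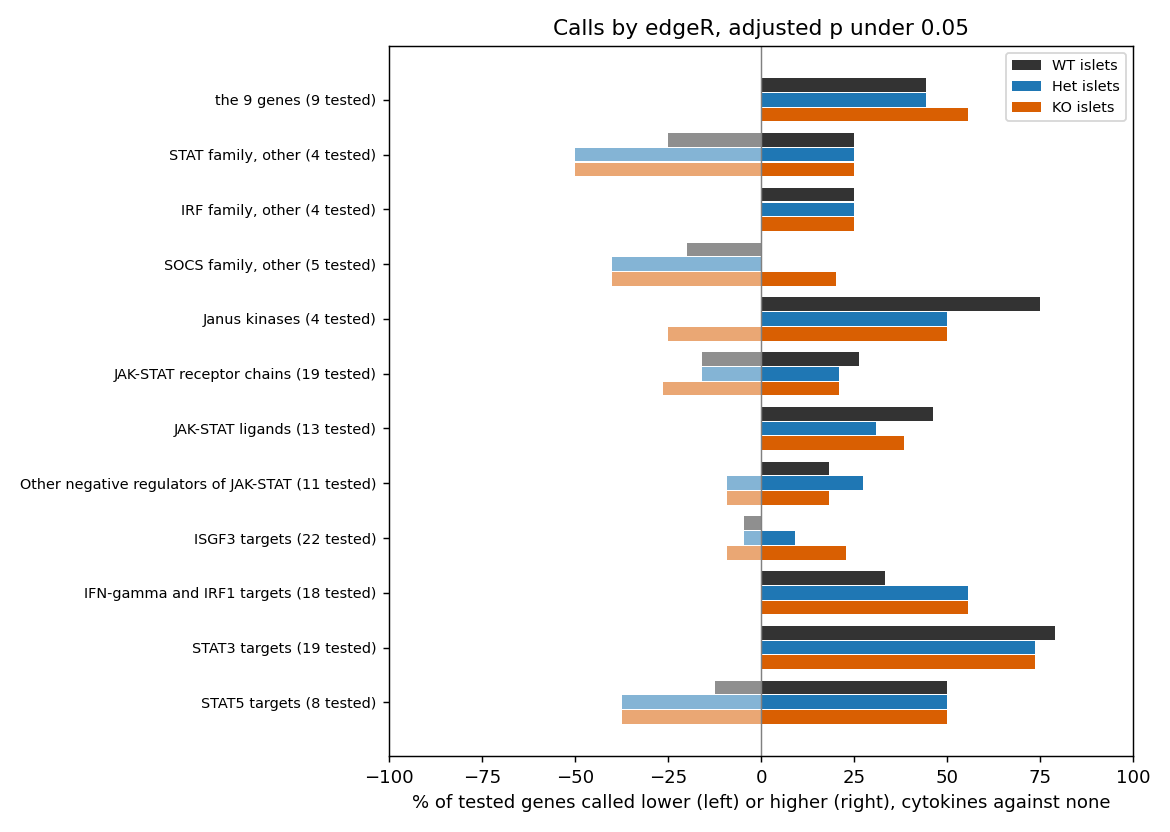
Share of the tested genes of each list (percent) called higher (right, solid) or lower (left, pale) with cytokines by edgeR at an adjusted p under 0.05, in WT (black), Het (blue) and KO (orange) islets. STAT3 targets have the longest bars (15 of 19 in WT), and ISGF3 targets short bars on both sides (0 of 22 higher in WT). The lists were chosen with earlier results of these data known.

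In untreated KO against WT islets, 5 of the 19 STAT3 targets were called lower and 0 higher, with a median of -0.63 beside 0.00 over all genes. There, 2.40% of all genes were called lower and 0.534% higher, and 13 of the 19 had an unadjusted p under 0.05 by edgeR. In untreated KO against Het islets 11 did, with a median of -0.39 (0.01 over all genes) and 0 called. The KO minus WT difference in cytokine response had a median of 0.53 (-0.01 over all genes), with 10 under 0.05 and 0 called. It uses the same untreated KO and WT libraries. The STAT3 targets called in untreated KO against WT islets were Bcl3 (-0.63 ± 0.15), Lcn2 (-1.80 ± 0.39), Lrg1 (-2.44 ± 0.57), Steap4 (-2.63 ± 0.65) and Cebpd (-1.27 ± 0.24), with edgeR adjusted p of 0.015 to 0.0481. The count of STAT3 targets called lower was 0 to 4 when single libraries were left out and 1 to 9 over the other settings. In these untreated islets the summed acinar markers were 1170 to 1840 CPM in KO and 6040 to 6420 CPM in WT, and the endothelial ones 215 to 332 and 403 to 539 CPM. The part of these cells in the STAT3 target difference was not tested. None of the 22 ISGF3 targets was called by edgeR there, although their median was -0.61 and 9 had an unadjusted p under 0.05. The count of ISGF3 targets lower was 0 to 1 without single libraries and 0 to 4 over the other settings. With cytokines, 1 STAT3 target was higher in KO than in WT (Orm1, 0.78 ± 0.21, edgeR adjusted p 0.0449) and 1 lower (Reg3g, -2.27 ± 0.44, 0.0113). Also, 1 IFN-gamma and IRF1 target was higher (Psmb10, 0.41 ± 0.11, edgeR adjusted p 0.0394), and 1 ISGF3 target was lower (Oasl1, -0.73 ± 0.20, 0.0438). These calls were lost in 8 (Orm1), 2 (Reg3g), 7 (Psmb10) and 7 (Oasl1) of 15 alternatives. In this comparison 1.52% of all genes were called higher and 3.80% lower. Of receptor chains, Il6ra was higher in KO in both treatments (0.44 ± 0.09 and 0.36 ± 0.09), and Prlr was higher when untreated (0.73 ± 0.16, edgeR adjusted p 0.0252). Ifnlr1 was lower in KO when untreated (-0.75 ± 0.19, edgeR adjusted p 0.0429) and with cytokines (-0.95 ± 0.19, 0.00942). Ifngr2 was lower when untreated (-0.39 ± 0.10, edgeR adjusted p 0.0493). Of 15 pathway gene calls in the KO against WT comparisons, 1 passed under all alternatives, that of Ifnlr1 with cytokines. These genes were named after their values were seen.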

How the data were processed

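Bulk RNA-seq of 18 islet libraries (6 groups of 3) was used. The authors deposited read counts per gene for 55536 genes and a filtered table of the same kind with 25253 genes. Per the submitters' processing notes, the tools were STAR 2.5.2a, featureCounts 1.6.2, DESeq2 1.30.0, cutadapt 1.16 and FastQC 0.11.7, on build GRCm38, with no role or order given. Sample columns belonging to no sample here numbered 0.

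From the full count table, genes were kept with edgeR's filterByExpr (count minimum 10), scaled by TMM and fitted with a quasi-likelihood model with robust dispersions, 1 mean per group and 12 residual degrees of freedom, in edgeR 4.0.16 under R 4.3.3. The 12 comparisons were cytokines against none in 3 genotypes, genotype pairs in each treatment, and the interactions; p-values were adjusted by Benjamini and Hochberg over 17590 genes, with a threshold of 0.05. The scripts were tested on simulated data. Alternatives used limma 3.58.1, DESeq2 1.42.0, other scaling, filters, blocks and omissions; robust dispersions off, and the replicate number of the authors' sample table as a term, were added after seeing the data. Figures used Python 3.11.15 and matplotlib 3.10.9.

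All 9 members were tested in each comparison, with every value given for cytokines and for KO against WT; from each pathway list, the 2 called genes with the smallest adjusted p per cytokine comparison, or 1 if none passed; and for each member the 3 genes with the highest correlation. Members and lists were chosen with earlier results of these data known. Exon lengths and overlaps are from GENCODE M21. An item of the pathway lists is not reported here.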

Additional observations from a re-analysis of the deposited data

How the results depend on the processing

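The rises of Socs1, Socs3, Stat3 and Irf1 with cytokines kept their direction and passed in all 3 genotypes, under 16 alternatives per genotype. Of these, 10 keep all libraries and the rest leave out 1 library of the groups compared. Irf8 had 118 to 545 reads per library, and its SE with cytokines in KO was 0.41 with all libraries and 0.23 without untreated KO replicate 3. The number of members called lower or higher in untreated KO against WT islets was 2; it was 0 with no low-count filter, 1 with only the groups compared, 4 with limma voom and 0 to 1 when single libraries were left out. In untreated KO against Het it was 0, 1 with DESeq2, 1 with limma voom and 0 to 1 over omissions. In treated KO against WT it was 1, 2 with limma voom and 0 to 1 over omissions. The cause was not tested beyond the smaller samples of the omissions. Over all genes, these members' comparisons had 517, 0 and 937 calls by edgeR, 929, 329 and 1587 by DESeq2 and 1756, 2279 and 4058 by limma voom. Of 67 pathway gene calls with cytokines 56 passed in all alternatives, and of 15 in KO against WT 1 did.

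Values that turned sign, over single omissions, were Irf7 with cytokines in WT (-0.33 to 0.16) and Het (-0.81 to 0.12), Irf9 in WT (-0.10 to 0.16) and Het (-0.17 to 0.06), Irf8 in KO (-0.98 to 0.27), Irf8 (-0.35 to 0.94) and Socs1 (-0.03 to 0.81) in untreated KO against WT, and Stat2 (-0.16 to 0.08), Stat3 (-0.01 to 0.04) and Socs1 (-0.08 to 0.19) in treated KO against WT. With limma voom, Cish in Het with cytokines was -0.03 and Stat2 in treated KO against WT 0.06. None of these was called.

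Same-numbered untreated and treated libraries of a genotype had deviations correlated at -0.22 to 0.39, above 0.1 in 6 of 9 pairs, and 12 of 18 libraries correlated best with their own number, a hint from the data and not the design. The labels state no pairing and not every pair was above 0.1, so pairing was not established. A further alternative used the replicate number as a block shared by all genotypes, which is not a pairing inside a genotype. Same-numbered libraries of different genotypes correlated at -0.28 to 0.45, so a shared effect was not established either. With this block, members called were 5 in WT, 5 in Het and 5 in KO with cytokines and 4 in untreated KO against WT. There Irf7 (edgeR adjusted p 0.0189) and Irf9 (0.0414) passed, and with cytokines Stat2 passed in WT (0.0316) and Het (0.00784).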
